A study of Homo sapiens with 4 samples.

Results

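HELZ2 was among the human genes with the most predicted N6-methyladenosine (m6A) sites in C643 cells, and it was chosen by its number of listed sites. C643 is a long-established human thyroid carcinoma cell line of the anaplastic type, and all values describe that single line. The samples formed 1 group, wild-type C643 with no treatment named in the labels, of 3 biological replicates in 4 libraries (2 of them technical libraries of replicate 1). Poly(A)+ RNA was assayed by miCLIP2: antibodies against m6A are fixed to RNA fragments with UV light, and cDNAs end next to the bound nucleotide. The members are the listed sites on the minus strand of chromosome 20 within HELZ2, which numbered 31 of the 18789 sites in the list. All replicates entered 1 list without read counts. Therefore the depth behind a site is unknown, no spread between replicates could be computed and no test was run. Intervals given with shares are Wilson intervals at 95% and cover the counting of motifs or sites only. Expression was not analysed here, so a motif that was not listed cannot be told from a motif with too few reads.

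m6A is placed on messenger RNA in the nucleus by the METTL3-METTL14 methyltransferase complex, which prefers the DRACH motif (D is A, G or T; R is A or G; H is A, C or T; the A before the C is the modified base). Most such motifs in a transcript carry no m6A, and long exons and the surroundings of stop codons are known as preferred places. Exon junction complexes, which splicing leaves on the RNA near junctions, are known to keep the methyltransferase away from adjacent sequence. HELZ2 (helicase with zinc finger 2, formerly PRIC285) encodes a very large protein of the UPF1-like helicase family that also has a ribonuclease domain. It is known as a coactivator of the nuclear receptors PPARA and PPARG and as a gene induced by interferon.

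HELZ2 (ENSG00000130589.16) lies on chromosome 20 between positions 63558086 and 63574239 of GRCh38, on the minus strand. Its longest supported transcript, ENST00000467148.2, has 20 exons, 10002 nt after splicing and a reading frame of 2649 codons. The coding sequence (CDS) takes up 79.5% of that transcript, the 5' UTR 892 nt and the 3' UTR 1160 nt. The gene is rich in GC, with 67.2% in the CDS. No other annotated gene overlapped it (0 on the same strand and 0 on the opposite strand), and 0 sites were listed on the opposite strand.

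Nearly all HELZ2 sites were coding, and most of these lay in a single very long exon. The CDS held 28 of the 31 sites (90.3%, 75.1 to 96.7), the 3' UTR 2 and the 5' UTR 1. In the other coding host transcripts, that is, the chosen transcripts of other genes with at least 1 site, 42.0% of the sites were coding and 55.5% were in the 3' UTR. Exon 9, which spans positions 63562520 to 63566231 and has 3712 nt, held 24 sites. The remaining coding sites were 1 in exon 6, 2 in exon 7 and 1 in exon 20, the last exon. All 31 sites lay in exons of this transcript, and 0 lay in its introns.

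The sites that carry these observations are printed with 10 nt on either side where the transcript allows, read on the RNA strand of GRCh38 with T for U. Capitals mark the pentamer centred on the listed A. First come the 5 highest scores of the gene, where the score is the output of the authors' classifier, between 0 and 1. They show the pentamers that scored highest. In order of score they are positions 63565337 (0.916), 63565196 (0.898), 63559102 (0.896), 63563112 (0.883) and 63562673 (0.859).
Exon 9, 63565337: ggccgcctGGACTgtgggatg
Exon 9, 63565196: tgccgcatGGACAcgtgggac
Exon 20, 3' UTR, 63559102: aagtgggtGGACTtggaggag
Exon 9, 63563112: tcagctctGGACGgtggcacc
Exon 9, 63562673: cagacgcaGGACTgggaccag
Each of them holds GGAC, and the fourth is followed by a G, which takes it out of the DRACH definition.

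The 7 sites that were not at DRACH are shown next, apart from position 63563112, which is printed above. They show how far the listed sequences departed from the motif. Of the 7, 5 were GGACG and all of those lay in exon 9. The other two were a GTACT in exon 7 and a GCACT in the 3' UTR.
Exon 7, 63567499: acgctgcaGTACTgttgcctg
Exon 9, 63565379: atcccgctGGACGatgcctcc
Exon 9, 63564581: ctctgccaGGACGtcctcagc
Exon 9, 63564180: gtgcacgcGGACGgtcacgcc
Exon 9, 63563783: aggtacctGGACGtggtgttg
Exon 20, 3' UTR, 63558802: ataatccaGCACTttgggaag
The scores of these sites were 0.670, 0.756, 0.552, 0.722, 0.733 and 0.581 in the order printed.

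The closest run of sites in the gene, 3 adenosines within 19 nt of exon 9, is shown because it held the smallest spacings. The listed adenosines at 63563981 and 63563974 were 7 nt apart, and the next at 63563963 followed after 11 nt.
Exon 9, 63563981: cgcacccaGGACTacgaacag
Exon 9, 63563974: aggactacGAACAgatggtgg
Exon 9, 63563963: cagatggtGGACTtggtcacc
The scores of this run were 0.661, 0.678 and 0.846. The printed windows of the 3 sites overlap, so they share sequence.

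The site with the lowest score (0.511) was the only one in the 5' UTR, at position 63574230, the 10th nucleotide of the annotated transcript. In mouse stem cells, the authors saw signal at transcript starts that did not respond to loss of Mettl3. They propose that it likely reflects m6Am, a related modification at the cap that the antibody also binds. Whether this applies to the site here was not tested.
Exon 1, 5' UTR, 63574230: agaatcgAAACTgagagctc
The next lowest score, 0.535, belonged to a GGACC in exon 9 at 63565874.
Exon 9, 63565874: ccagtaggGGACCtggccgag

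**Figure D1:**
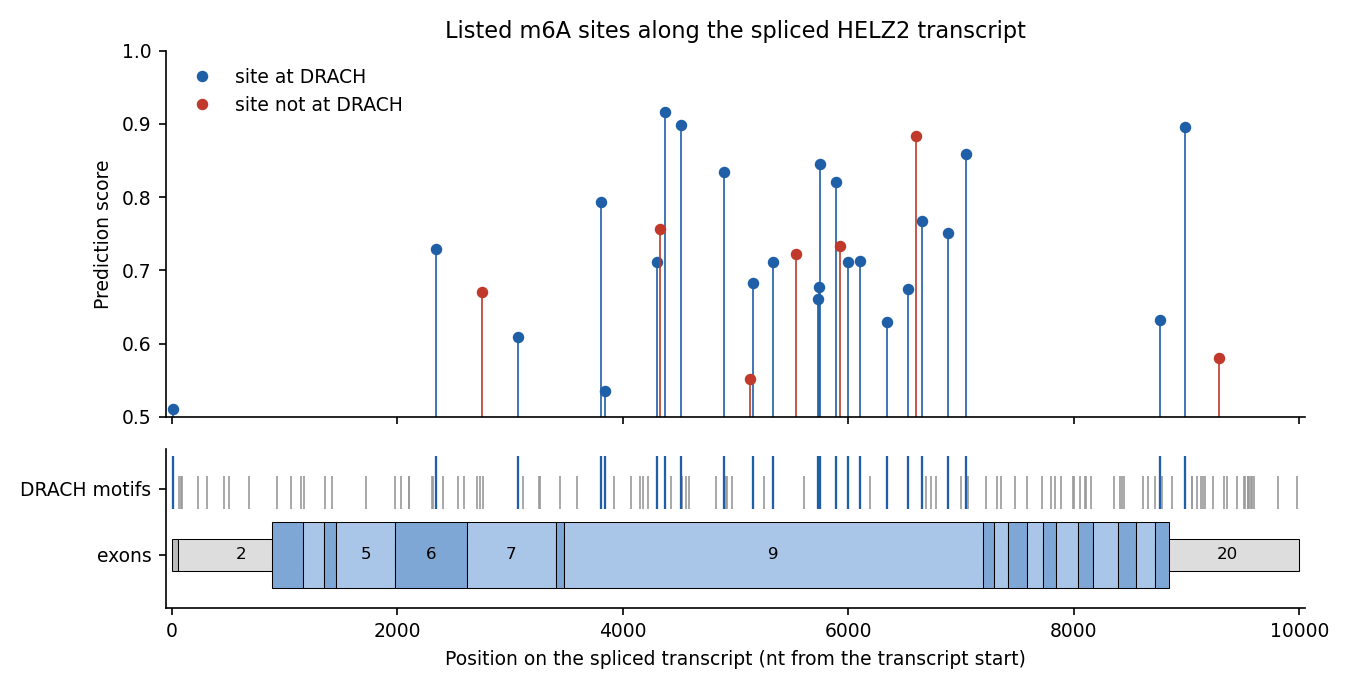
Listed sites along the spliced HELZ2 transcript, with the position in nt from the transcript start on the horizontal axis. Upper panel, each stem is a site and its height the prediction score, with the axis starting at 0.5, the lowest score in the list; lower panel, exons with the CDS as taller boxes, above them short grey lines for DRACH motifs that were not listed and longer blue lines for those listed. The sites fill exon 9, while the short exons 10 to 19 hold motifs and no site.

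Exon by exon, most listed coding motifs lay in exon 9, and not every long exon had one. Exon 2 (1114 nt, 3 coding DRACH motifs) and exon 5 (518 nt, 1 such motif) had 0 listed. HELZ2 had 91 coding DRACH motifs, of which 22 were listed (24.2%, 16.5 to 33.9). Among the 104244 coding DRACH motifs of the other host transcripts, 6.28% were listed. The count of sites chose the gene, so this difference is a description only. In exon 9, 19 of 42 DRACH motifs were listed (45.2%), and exon 9 held 46.2% of the coding DRACH motifs and 46.7% of the coding length but 85.7% of the coding sites.

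Exons 10 to 19, which are between 95 and 219 nt long, had 21 coding DRACH motifs and 0 of them were listed. None of these motifs (0 of 21) was more than 100 nt from a junction. Taking all coding exons of up to 400 nt together, 0 of 25 motifs were listed (Wilson upper bound 13.3%), against 1.96% in such exons of the other host transcripts, a share that lies inside that interval. Between the last site of exon 9 and the next site, in exon 20, stretched 1725 nt of transcript with 24 DRACH motifs, 11 of them GGAC, and no listed site. A longer stretch of 2339 nt ran from the site in exon 1 to the site in exon 6 and passed 21 DRACH motifs. It included exon 2 (1114 nt, mostly 5' UTR, 11 motifs) and exon 5 (518 nt), in which 1 coding DRACH motif was found.

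Exons 6 and 7 were also long, and in exons over 400 nt of the other transcripts 16.4% of coding DRACH motifs were listed. Exon 6 (642 nt) had 10 DRACH motifs and 1 site (10.0% listed), a GGACA at 63568631 with a score of 0.729. Exon 7 (784 nt) had 7 DRACH motifs and 1 listed DRACH site (14.3%), an AGACT at 63567176 with a score of 0.609, besides the GTACT shown above. Relative to length, exon 9 had 6.47 sites per kb, exon 7 had 2.55 and exon 6 had 1.56.

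**Figure D2:**
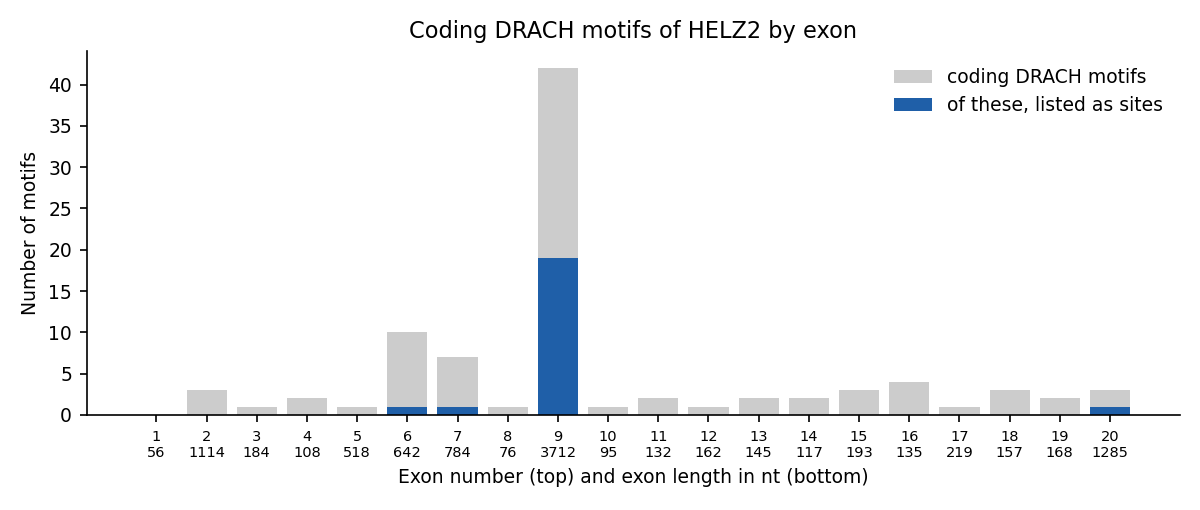
Coding DRACH motifs of HELZ2 by exon, with the full bar giving the number of motifs and the blue part the number listed as sites; exon numbers and lengths in nt are under the bars. Exon 9 has 19 listed of 42, and exons 10 to 19 have 0 of 21.

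The distance to exon junctions was examined next. Of the 28 coding sites, 27 lay more than 100 nt from a junction, and 13 sites were more than 1000 nt from any. The median distance was 874 nt for coding sites and 196 nt for the coding DRACH motifs of HELZ2. More than 100 nt away, 21 of 57 motifs were listed (36.8%, 25.5 to 49.8), against 18.0% in the other host transcripts. Within 100 nt, 1 of 34 was listed (2.94%, 0.521 to 14.9), close to the 2.43% of the others.

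The exception within 100 nt was the GGACT at 63559322 in the last exon, 49 nt after the last junction and 74 nt before the stop codon, with a score of 0.633. Split more finely, 1 of 12 HELZ2 motifs more than 100 and up to 200 nt from a junction was listed (8.33%, 1.49 to 35.4), against 14.7% in the other transcripts. Above 200 and up to 400 nt it was 5 of 11 (45.5%, 21.3 to 71.99), against 21.98%. Beyond 400 nt it was 15 of 34 (44.1%, 28.9 to 60.6), against 18.6%. The intervals of HELZ2 were wide, and of these finer classes only that beyond 400 nt lay wholly above the share of the other transcripts. This is not a test, because motifs of 1 transcript are not replicates and the gene was chosen for its number of sites.

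**Figure D3:**
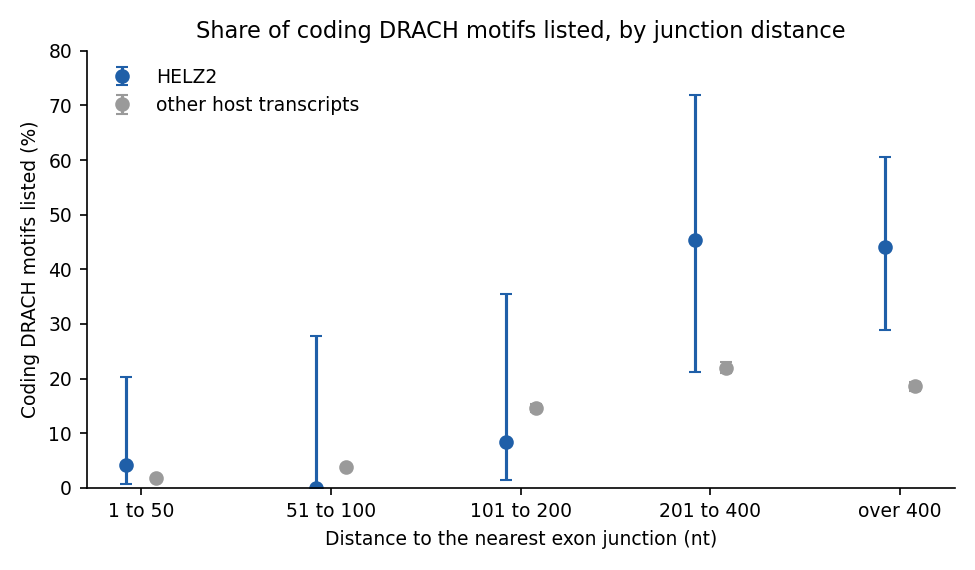
Share of coding DRACH motifs listed (%) by distance to the nearest exon junction in nt, for HELZ2 and for the other host transcripts; bars are Wilson intervals at 95%, which for the other transcripts are mostly smaller than the points. HELZ2 rises from 0 of 10 motifs at 51 to 100 nt to 15 of 34 beyond 400 nt.

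How much of the high share went with the layout of the gene was described by applying the rates of the other transcripts to the motifs of HELZ2. At their overall rate, 91 motifs would have given 5.71 listed motifs where 22 were found, a ratio of 3.85. With rates by junction distance the count was 11.3 and the ratio 1.94. With rates by pentamer alone it was 6.44 and the ratio 3.42. With both it was 13.1, a ratio of 1.68. The ratio was thus lower with junction distance than with the pentamer, and it stayed above 1 with both. The gene was chosen for its number of sites, so a ratio above 1 is a description only. Differences in expression or depth between the genes were not accounted for.

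Other genes reached such shares. Among the 287 host genes with at least 20 coding DRACH motifs more than 100 nt from a junction, the median share listed was 15.2% (quartiles 4.65 and 27.5, highest 54.5). HELZ2, with 36.8%, ranked 26th, and 9.06% of these genes were at or above it. Over all coding DRACH motifs, in the 506 genes with at least 50 of them, HELZ2 ranked 8th with 24.2%, against a median of 2.63%. The motifs themselves were scarce in HELZ2. It had 11.5 coding DRACH motifs per kb, rank 503 of those 506 genes from the top, where the median was 19.4 per kb.

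**Figure D4:**
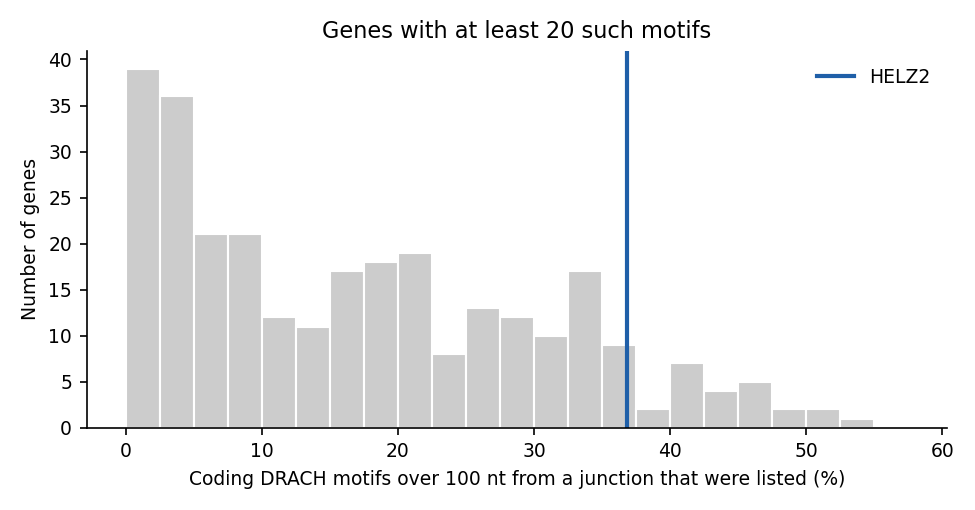
Number of genes by the share (%) of their coding DRACH motifs more than 100 nt from a junction that were listed, for genes with at least 20 such motifs, in bins of 2.5 percentage points; the line marks HELZ2. HELZ2, at 36.8%, lies in the upper tail, below genes that reach 54.5%.

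Exon 9 was then set against other very long coding exons. The host transcripts had 130 internal exons of more than 1000 nt that were wholly coding, in 119 genes, and 26 of these exons had no site. Exon 9 of HELZ2 ranked 6th by length and had the most sites of the 130, with 24 against a median of 3. Relative to length it ranked 11th, with 6.47 sites per kb against a median of 2.02. Of the 91 such exons with at least 20 DRACH motifs, it ranked 5th by the share listed, with 45.2% against a median of 11.1% (quartiles 2.46 and 23.3). The gene was chosen for its number of sites, most of which lay in exon 9, so the ranks by sites and by share are a description only.

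The exons longer than exon 9 of HELZ2 all held fewer sites, and a relation of sites to exon length was not tested. The longer exons were those of SRRM2 (6701 nt, 12 sites), ANKRD11 (6578 nt, 1 site), SON (5916 nt, 4 sites), TACC2 (5313 nt, 0 sites) and MPRIP (3807 nt, 0 sites). An exon of PKD1, which encodes polycystin-1, was of nearly the same length (3620 nt) and held 14 sites, with 13 of its 41 DRACH motifs listed. After exon 9 of HELZ2, the exons with the most sites were in WDR6 (2482 nt, 21 sites) and TNKS1BP1 (2162 nt, 20 sites). Among motifs of internal exons over 1000 nt that lay more than 100 nt from a junction, 19 of 44 were listed in HELZ2 (43.2%, 29.7 to 57.8) and 13.7% in the other transcripts. The 44 motifs include those of exon 2 that are coding and at that distance. Because the count of sites chose the gene, these comparisons are likewise only descriptive.

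**Figure D5:**
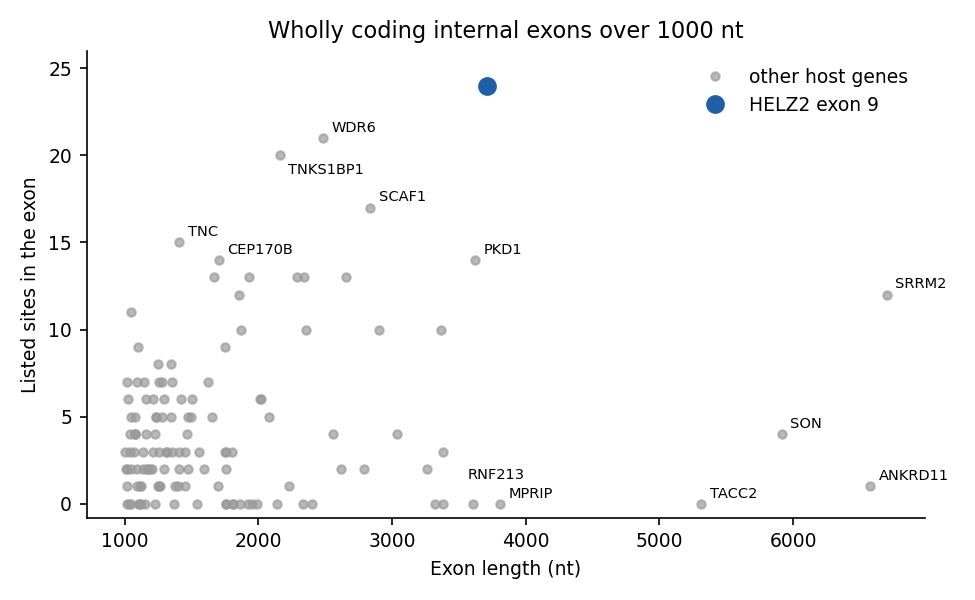
Listed sites against exon length in nt for the 130 wholly coding internal exons over 1000 nt, 1 point per exon, with exon 9 of HELZ2 as the large point; genes are named for the longest exons and those with more than 13 sites. HELZ2 has 24 sites in 3712 nt, while 4 of the 5 longer exons have between 0 and 4.

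Within exon 9 the sites covered most of the length. The first site lay 328 nt from the start of the exon and the last 154 nt before its end. The 327 nt before the first site held 1 DRACH motif and the 153 nt after the last held 2. Cut into 4 equal stretches from its start, the exon had 5, 5, 8 and 6 sites, with 4 of 10, 4 of 13, 6 of 8 and 5 of 11 DRACH motifs listed. The longest stretch of exon 9 without a site was 464 nt with 5 motifs.

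The spacing of sites was compared with that in other genes. Of 30 neighbouring pairs, 7 (23.3%, 11.8 to 40.9) lay within 50 nt of each other on the spliced transcript, against 32.3% of 13887 pairs in the other coding host transcripts, a share inside that interval. The median spacing was 181 nt in HELZ2 and 95 nt in the others. Within exon 9 the median spacing was 138 nt between sites and 77 nt between DRACH motifs. There, 30.4% of site pairs (15.6 to 50.9) and 41.5% of motif pairs (27.8 to 56.6) were within 50 nt. The exon held 24 sites and 42 motifs, so a wider spacing of the sites follows from their smaller number. Clustering of sites relative to motifs was not tested.

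Within exon 9, listing varied with the pentamer. All GGACT motifs of the exon were listed, 7 of 7, and in internal exons over 1000 nt of other genes 44.5% of 384 were. GGACA was listed at 4 of 5 and GGACC at 3 of 10, against 21.6% and 17.0% in such exons of other genes. By the last base of the motif, 10 of 12 motifs ending in T were listed, 5 of 8 ending in A and 4 of 22 ending in C. By the base at the start of the motif, 17 of 27 with G were listed, 2 of 5 with A and 0 of 10 with T. Because the authors' classifier used local sequence to call sites, these differences between pentamers and bases are not independent of the calling. They do not show a preference of the methyltransferase in this exon.

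Applying, pentamer by pentamer, the rates of other internal exons over 1000 nt to exon 9 gave 7.59 listed motifs where 19 were found. The count of sites chose the gene, so this difference too is a description only. The 10 motifs that began with T comprised 7 TGACC, 2 TGACT and 1 TGACA. In all coding sequence of the other transcripts, 0.494% of TGACC, 9.16% of TGACT and 1.29% of TGACA motifs were listed. These last rates cover exons of every length and all junction distances, so they are not matched to exon 9.

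The coding GGACT motifs outside exon 9 all lay within 100 nt of a junction. HELZ2 had 11 coding GGACT motifs, of which 8 were listed, 7 in exon 9 and the GGACT in exon 20 that lies 49 nt from a junction. The 3 others lay 27 nt from a junction in exon 2, 25 nt from a junction in exon 10 and 2 nt from a junction in exon 13, and are printed for comparison with the listed ones.
Exon 2, 63572134: cacccccgGGACTctccaagt
Exon 10, 63562358: ccgtgcgtGGACTagaggagg
Exon 13, 63561744: tcctggcaGGACTgctcctga
Their pentamers are identical to those of the listed sites, among them the GGACT in exon 9 with the highest score of the gene.

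GGACG, outside DRACH only by its last base, was frequent in exon 9. The exon held 17 GGACG, and 5 of them were listed (29.4%). In coding sequence of other transcripts more than 100 nt from a junction, 15.4% of 1868 GGACG were listed. Over the whole CDS of HELZ2, 5 of 25 GGACG were listed, against 5.87% of 6765 in the other transcripts. With so few GGACG, and a gene chosen for its number of sites, these differences are a description only. DRACH made up 77.4% of HELZ2 sites (24 of 31, 60.2 to 88.6), against 88.7% in the other transcripts, a share just above the upper end of the HELZ2 interval.

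The GGACT sites of exon 9 not yet described were at 63564815 (score 0.835), 63564383 (0.712) and 63563825 (0.821). The remaining GGACA sites of the exon were at 63563717 (0.711), 63563606 (0.713) and 63563180 (0.675). The remaining GGACC sites were at 63564554 (0.683) and 63563372 (0.630). These 8 sites all held GGAC, and the GGACC pair scored below each of the GGACT sites just named. That order did not hold for every GGACT of the exon: the one at 63563981 (0.661) scored below the GGACC at 63564554. Outside GGAC, and besides the GAACA of the closest run, exon 9 had a GAACT at 63565904 (0.793), a GAACT at 63562832 (0.751), an AGACT at 63563060 (0.767) and an AGACC at 63565410 (0.711).

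Prediction scores of HELZ2 had a median close to that of coding sites in other genes. They ran from 0.511 to 0.916 with a median of 0.713 (quartiles 0.665 and 0.807). The median was 0.755 over the other sites in host transcripts and 0.707 over their coding sites. Scores reached at least 0.7 at 19 of the 31 sites (61.3%), against 63.2% of the other sites in host transcripts. Among coding sites alone, the shares were 64.3% in HELZ2 and 51.7% in the other host transcripts. The gene thus had many sites, and their median score lay between the quartiles of the other coding sites (0.606 and 0.799).

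Within the gene, the 22 sites at GGAC had a median score of 0.726 and the 9 others a median of 0.678. The corresponding medians of other genes were 0.783 and 0.726. The 9 GGACT sites of HELZ2 had a median of 0.835, against 0.834 in other genes. The 24 sites of exon 9 had a median of 0.728 and the 7 sites of other exons 0.633. Sequence, transcript region and the signal relative to the other peaks of the gene entered the score, so these differences are not independent of the motif or of the gene's other sites.

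With respect to the reading frame, the listed A was mostly the middle base of a codon. This held for 23 of the 28 coding sites, while 4 were at the first base and 1 at the third base. A GAC codon held 20 of the sites. The motifs themselves were also mostly in that frame. Of the coding DRACH motifs of HELZ2, 71.4% had their A at the middle base, against 55.3% in the other transcripts. Of the motifs in that frame, 19 of 65 were listed (29.2%), against 2 of 18 at the first base and 1 of 8 at the third base. In the other transcripts the shares were 6.46% at the middle base, 5.00% at the first base and 7.71% at the third base, so the middle base was not the highest there.

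Most sites are shared by both coding isoforms. A shorter coding transcript, ENST00000427522.6, starts inside the gene at position 63568074 and has 2080 codons. It contains 29 of the 31 sites, 27 of them in its CDS, and lacks the site in exon 1 and that in exon 6. Every site of exon 9 is therefore coding in both transcripts.

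The surroundings of the stop codon were examined next. Within 200 nt of it, 2 of 6 DRACH motifs were listed (33.3%, 9.68 to 70.0), against 19.3% in the other transcripts. They were the GGACT in the CDS and the GGACT of the 3' UTR shown above, which lies 146 nt after the first base of the stop codon. Farther than 200 nt from the stop codon the 3' UTR had 20 DRACH motifs, of which 0 were listed (Wilson upper bound 16.1%), against 6.45% in the other transcripts, a share inside that interval. The GCACT at 63558802 lies there, 446 nt after the stop codon. The 13 nt around its A occur 527 times on chromosome 20, both strands counted, whereas those around the other 30 sites occur at most 15 times. That run of bases resembles a stretch of the Alu repeat (a repeat annotation was not used here). Its full printed window occurs 1 time on the chromosome, as do those of all the other sites.

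The spread of sites over the transcript was compared between genes by the overlap of the shares of sites in 7 classes of exon and UTR, over the genes with at least 15 sites. The most similar were CIC, a transcriptional repressor, with 93.5% overlap and 16 of its 18 sites in the CDS of internal exons over 400 nt, COL6A3, a chain of collagen VI, with 90.3% (23 of 25) and TNC, the matrix protein tenascin C, with 90.3% (16 of 18). The median overlap of HELZ2 with the 130 genes was 12.9%. In HELZ2 the class held 27 of 31 sites. The class merges all internal exons over 400 nt, so a high overlap does not mean that the sites share a single exon. The longest internal exon was 2804 nt in CIC, 699 nt in COL6A3 and 1410 nt in TNC, against 3712 nt in HELZ2.

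The sites of related helicases were counted next. Of 11 UPF1-like superfamily 1 helicase genes, 5 had a listed site (45.5%), against 18.4% of 19680 protein-coding genes. HELZ2 itself is counted among both the 11 and the 5. HELZ2, chosen for its count, had 31 of the 54 sites of the list, and the median over all host genes was 3. UPF1, the central factor of nonsense-mediated decay, had 10 sites with 9 in the 3' UTR. IGHMBP2 had 6, MOV10 had 4 and ZNFX1 had 3, although ZNFX1 has 120 coding DRACH motifs and an internal exon of 1809 nt. Which genes were expressed is not known here, and the lists were not tested against other genes.

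Of 19 PPAR and coactivator genes, 7 had a site (36.8%), against 18.4% of all protein-coding genes. Of their 38 sites, 28 were in 3' UTRs (73.7%), against 55.5% in other host transcripts. PPARD, a fatty acid receptor, had 11 sites with 7 in the 3' UTR, and RXRA and RXRB, the dimerisation partners of PPARs, had 13 and 7 sites with 12 and 5 in the 3' UTR. PPARA and PPARG, with which the HELZ2 protein is known to act, had none. EP300 and CREBBP, histone acetyltransferases with 147 and 157 coding DRACH motifs, had 1 and 2 sites, all of them coding. CARM1 and THRAP3 had 2 each, all in the 3' UTR.

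Of 43 interferon-stimulated genes, HELZ2 not counted, 11 had a site (25.6%, against 18.4% of all protein-coding genes), with between 1 and 6 sites each. NLRC5, a regulator of MHC class I genes, had 6 sites, 5 of them coding and in internal exons over 400 nt, as in HELZ2. OASL had 6, TRIM25 had 5, IRF1 had 4, and ISG15 and TAP1 had 3 each. RNF213 had 2 sites, both in the 3' UTR, although its exon of 3609 nt held 71 DRACH motifs and 0 sites. ADAR, IFI6, ISG20 and STAT2 had 1 each.

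The number of sites set HELZ2 high in the list as a whole. By sites in exons of the host transcript, HELZ2 and LRRC14 shared 4th place of 3713 genes with 31, after PLEC, H6PD and NDST1 and ahead of PIP5K1C and PLXNA1 with 29 each. By coding sites it ranked 2nd of 3623 coding host genes, with 28 against a median of 1. Its nearest neighbour on the chromosome with sites was GMEB2, 13363 nt away on the same strand, with 10 sites. Of the 9 genes with sites within 200 kb, GMEB2 and TNFRSF6B had 10 each and the others between 1 and 7.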

How the data were processed

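miCLIP2 libraries of C643 cells were processed by the authors. Per the labels and the methods, reads were aligned to GRCh38.p12 with STAR 2.7.3a, unique alignments were kept, duplicates were removed with UMI-tools 1.0.0 and reads with C-to-T transitions were separated. PureCLIP peaks of the reads without such transitions, present in several replicates and located at adenosines were classified with m6Aboost. The deposited list gives positive sites only, pooled over replicates, with a prediction score between 0 and 1 (a fraction) for each. Rejected peaks and read counts were not analysed here. Relative signal strength, a classifier input, is scaled to the mean peak of the same gene, and region and sequence were inputs too.

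BED positions were converted to 1-based coordinates, and all 18789 sites were at an A of the reference. GENCODE release 44 was used, a later release on the same assembly. Each gene was represented by its longest transcript with support level at most 2 and transcript support level at most 3, or none given, with protein-coding transcripts preferred. This placed 17818 sites in exons of 3713 genes, 563 of them with several candidate genes, resolved in favour of protein-coding, then non-readthrough, then longest. The stop codon was counted with the CDS. A base next to a junction has distance 1 nt. Placement and distances were checked on made-up transcripts.

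Members, gene lists and classes were chosen with earlier results of these data known. Sites printed with sequence are the 5 highest and 3 lowest scores, sites outside DRACH, UTR sites and the closest run; unlisted GGACT motifs and recurring windows were added after their values were seen. Genes were named by likeness of site spread, or as members with sites of 3 lists (helicases, PPAR coactivators, interferon-stimulated genes); genes compared by long exons, rank or position were named after seeing their values. Python 3.11.15, numpy 2.4.6, scipy 1.17.1, pysam 0.24.0 and matplotlib 3.10.9 were used.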

Additional observations from a re-analysis of the deposited data

How the results depend on the processing

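Across 7 results, 20 alternatives were computed, of which 14 stayed within the interval of the value (or within 1.5 times for the number of sites) and 6 moved. Restricting the list to scores from 0.7 upward gave 19 HELZ2 sites and 15.4% of coding DRACH motifs listed, which follows from fewer sites, and put 100% of the coding DRACH sites (14 of 14) more than 100 nt from a junction, because the exception in exon 20 scored lower. Counting every AC as background gave 6.68% of coding motifs listed, which follows from more motifs. A spacing window of 20 nt gave 6.67% of neighbouring pairs, which follows from the window. With RAC in place of DRACH, 93.5% of HELZ2 sites were at the motif, since GGACG then counts. The transcript choice changed nothing, as the longest and the MANE Select transcript are the same. No replicate could be left out of a list that was made from all of them together. No paired analysis was possible because all samples form a single group. Depth per site is unknown, so unlisted motifs may have been read too rarely, and shares from 10 to 34 motifs per distance class have wide intervals.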
